A study of Rattus norvegicus with 108 samples.

Results

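The metabotropic glutamate receptor genes Grm3, Grm5, Grm7 and Grm8 were followed through single-cell transcript counts of the rat dentate gyrus. They are 4 of the 19127 genes in the count tables and 4 of the 8 Grm genes listed there. The members were chosen by measured values: they were proposed from their rows across dorsal cell types, regions and treatments with earlier results of these data in view, among them the dorsal difference of Grm5 between fluoxetine and control. Their levels by dorsal cell type, their differences between regions and between fluoxetine and control in either region, and the interaction of region and treatment are therefore given as descriptions, without a test. Where such a fit is said to meet the threshold, that is given as a value too.

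Metabotropic glutamate receptors are G protein-coupled receptors that respond to glutamate more slowly than the ion channel receptors do. The product of Grm5 belongs to group I, sits mainly on the postsynaptic side of synapses and couples to Gq, phospholipase C and calcium release. The product of Grm3, in group II, couples to Gi/o and is known from glia as well as neurons. The products of Grm7 and Grm8, in group III, also couple to Gi/o and are known as presynaptic receptors that restrain transmitter release. In the dentate gyrus, glutamate reaches granule cells from the entorhinal cortex, and granule cells pass it on to mossy cells, interneurons and CA3.

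Tissue of the dorsal (dorDG) and ventral (venDG) dentate gyrus came from male rats that began the study at 2 months of age and were given the serotonin reuptake inhibitor fluoxetine (FT) at 18 mg/kg, or water (Sham), for 6 weeks. Each replicate was a pool of tissue from several animals and not a single animal. The 4 groups were dorDG FT with 4 replicates, dorDG Sham with 5, venDG FT with 5 and venDG Sham with 5. Transcripts were counted as unique molecular identifiers (UMIs) with a droplet method that reads the 3′ end, and levels below are UMIs of a gene per 10000 UMIs of the same cells. The p-values given rest on these pools, so they measure the spread between pools.

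The replicates held 42 to 384 cells and 220162 to 1523537 UMIs each, 3347 cells in all. Cells with under 2% of their UMIs in 120 cytosolic ribosomal protein genes, called low-ribosomal cells here, made up 36.6% of them, and their share differed between groups and reactions as given beside the results. A total of 9 barcodes occurred in more than 1 reaction (18 cells). Over all cells Grm5 had 7084 UMIs, Grm7 3481, Grm3 2104 and Grm8 549. At least 1 UMI was found in 45.6% of cells for Grm5, 33.6% for Grm7, 31.8% for Grm3 and 12.6% for Grm8. Counting error is therefore largest for Grm8, and it limits what can be said of that gene within cell types. Of other receptors of the family, Grm2 had 188 UMIs, Grm4 37 and Grm6 33.

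Cell types of dorDG are the 12 names of the authors' annotation, and those of venDG are clusters built without the Grm and pathway genes and named "-like" from markers. Not every dorsal name matched its defining markers. The 147 cells annotated InhibNeuron had Gad1 at 0.296 and Gad2 at 0.217 UMIs per 10000, with Slc32a1 and Dlx1 at 0, and all 7 inhibitory markers together reached 0.621. Their summed granule cell markers stood at 12.8, above every other dorsal type, with Prox1 at 1.88, Rfx3 at 3.04 and Stxbp6 at 5.88. Of the same list, C1ql2 was at 0 and Dsp at 0.069, below its 0.097 in Granule and 0.149 in Mossy cells. Their summed excitatory markers were 9.96, beside 12.5 in ExcitNeuron. In venDG, by contrast, the 58 Inhibitory-like cells had summed inhibitory markers of 13.9 (Gad1 at 3.54, Sst at 5.68) and the 174 Granule-like cells had 0.925. The cells annotated InhibNeuron are called by that annotation below, without the reading that they are inhibitory neurons. The 119 cells annotated Granule had summed granule cell markers of 5.96, below the 6.87 of ExcitNeuron and near the 5.03 of AstroSub1. The ventral Granule-like class had more of the excitatory markers (9.20) than of the granule cell markers (7.61). Cells annotated Mossy likewise had Calb2 and Drd2 at 0, with summed endothelial markers of 20.2 and mural markers of 22.2.

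Over all cells of a type, Grm5 was highest in the dorsal cells annotated as neurons. It stood at 17.9 UMIs per 10000 in InhibNeuron, 15.9 in ExcitNeuron and 8.93 in Granule cells. Averaged over the replicates that had 5 or more such cells, the levels were 20.9 ± 11.4 (SD, n = 4) in ExcitNeuron, 16.4 ± 5.80 (n = 6) in InhibNeuron and 8.88 ± 5.53 (n = 9) in Granule cells. ExcitNeuron and InhibNeuron did not differ beyond their spread, and InhibNeuron lay above Granule by more than 1 SD. The non-neuronal types followed, with 5.36 in AstroSub1, the annotated astrocytes, and 3.92 in oligodendrocyte precursors (OPC). The other types lay between 0.934 in Microglia2 and 1.81 in Oligodend1. The InhibNeuron cells were 11.4% of dorsal cells and 16.5% of dorsal UMIs, and they held 49.1% of the Grm5 UMIs. Low-ribosomal cells were 79.6% of InhibNeuron, 80% of ExcitNeuron and 79.8% of Granule cells. Such cells were 62.7% of AstroSub1, 27.6% of OPC and 9.35% of Microglia1. Among low-ribosomal cells Grm5 was 21.7 in InhibNeuron, 21.3 in ExcitNeuron, 11.8 in Granule, 10.7 in AstroSub1 and 9.49 in OPC. Among the other cells it was 8.61 in InhibNeuron, 2.96 in OPC, 2.39 in ExcitNeuron and 1.99 in Granule. The order of types was thus not the same in both.

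Grm7 followed the same order of neuronal annotations. It stood at 8.63 UMIs per 10000 in InhibNeuron, 7.56 in ExcitNeuron, 4.11 in Granule and 2.51 in OPC cells. The replicate means were 9.03 ± 3.10 (n = 4) in ExcitNeuron, 7.88 ± 2.76 (n = 6) in InhibNeuron, 4.42 ± 2.45 (n = 9) in Granule and 2.70 ± 0.95 (n = 7) in OPC cells. Again ExcitNeuron and InhibNeuron overlapped within their spread, and so did Granule and OPC cells. The lowest level was 0.50 in Microglia1, and InhibNeuron cells held 49.5% of the Grm7 UMIs. Among cells with 2% or more ribosomal UMIs, Grm7 was 4.61 in InhibNeuron, 2.73 in ExcitNeuron, 2.17 in OPC and 0.996 in Granule.

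Grm3 had a glial order. Its level was 5.64 UMIs per 10000 in Oligodend1, 3.03 in AstroSub1 and 2.68 in Oligodend2, and between 0.273 (Microglia1) and 1.41 (Granule) in the other 9 types. Over replicates Oligodend1 had 5.48 ± 2.098 (n = 9) and lay above the next type, Oligodend2 with 2.66 ± 1.08 (n = 7), by more than 1 SD. Oligodend2 and AstroSub1 (2.57 ± 1.39, n = 8) did not differ beyond their spread. Oligodend1 held 38.6% of the Grm3 UMIs and Oligodend2 18.6%, while Oligodend1 was 13.3% of the cells and 10.5% of the UMIs.

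Grm8 was low in every dorsal type. The highest levels were 0.771 UMIs per 10000 in ExcitNeuron, 0.759 in InhibNeuron, 0.517 in OPC and 0.511 in Granule cells, and in BergGlia cells no UMI was counted. Over replicates InhibNeuron had 0.784 ± 0.227 (n = 6), OPC 0.687 ± 0.593 (n = 7) and ExcitNeuron 0.620 ± 0.161 (n = 4), and none of these neighbours differed beyond its spread. InhibNeuron and ExcitNeuron cells held 30.3% and 12.6% of the Grm8 UMIs.

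**Figure D1:**
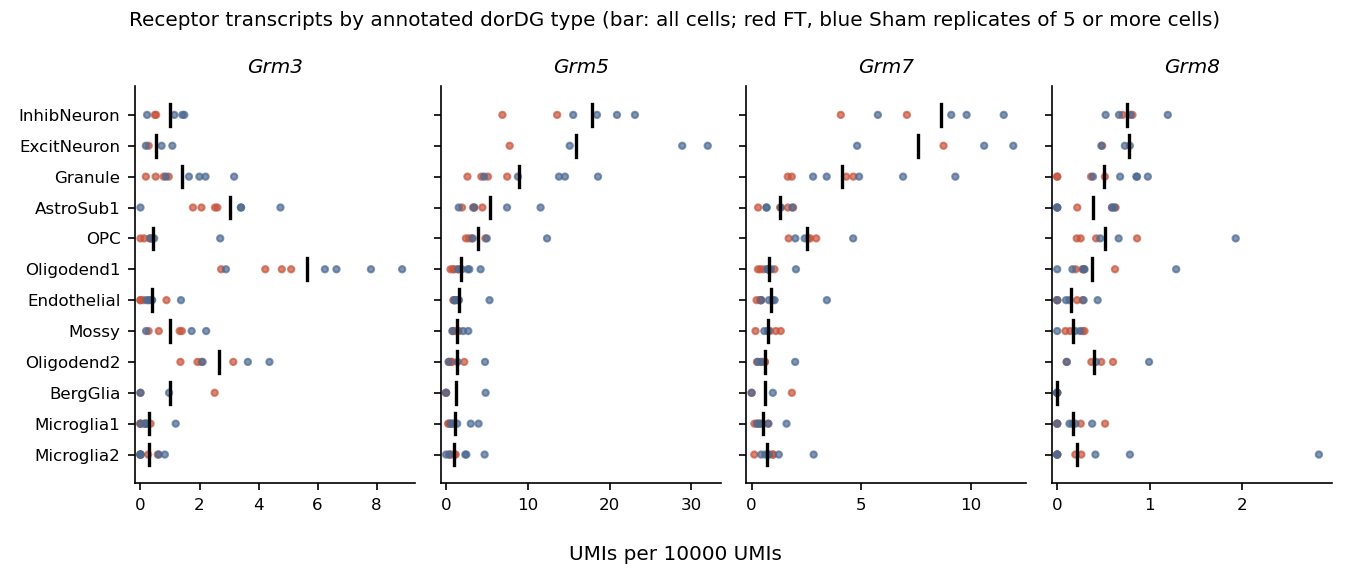
Level of each receptor transcript (x axis, UMIs per 10000 UMIs) in the 12 annotated dorDG types, with a bar for all cells of a type and points for FT (red) and Sham (blue) replicates with at least 5 cells. Grm5 and Grm7 have their longest bars in InhibNeuron (17.9 and 8.63) and Grm3 in Oligodend1 (5.64), and the Sham points of Grm5 lie mostly to the right of the FT points.

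Free RNA in droplets gives UMIs in cells that do not use a gene, so shares of cells were set against microglia, for which these receptors are no markers. After thinning every cell to 1000 UMIs, 78.9% of InhibNeuron cells kept a Grm5 UMI, against 11.5% of Microglia1 and 9.20% of Microglia2 cells. The same shares for Grm7 were 61.2%, 4.81% and 9.20%. For Grm3, 40.3% of Oligodend1 cells kept a UMI, against 3.85% of Microglia1 and 0% of Microglia2 cells. Before thinning the shares were 98.6% and 36.4% for Grm5, at median depths of 5846 UMIs per InhibNeuron cell and 6669 per Microglia1 cell. For Grm3 they were 71.3% of Oligodend1 cells, at a median of 2499 UMIs, and 8.74% of Microglia2 cells, at 1925. Thinned shares of Grm8 were 4.08% in InhibNeuron and 2.88% in Microglia1 cells, and no difference is read from them. Thinning evens out depth but not the low-ribosomal share. That share was 79.6% in InhibNeuron and 50.9% in Oligodend1, against 9.35% in Microglia1 and 22.3% in Microglia2. In the 10 low-ribosomal Microglia1 cells Grm5 was at 8.88 UMIs per 10000 (22 UMIs). Free RNA in low-ribosomal cells is therefore not matched by this comparison.

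The ventral cells carry no annotated types, so the leading dorsal type of a receptor could be tested there in its counterpart. Grm3 was higher in Oligodendrocyte-like cells than in the other ventral cells. Its lowest, median and highest replicate values were 2.59, 3.20 and 5.98 UMIs per 10000 in the 419 Oligodendrocyte-like cells and 0.373, 0.645 and 1.49 in the other cells. The log2 ratio was 2.18 ± 0.45 (SD, n = 10), the class was higher in 10 of 10 replicates and the groups of values did not overlap. The two-sided exact sign-flip permutation test gave p = 0.00195, the smallest it can give with these replicates. How many of all genes separate Oligodendrocyte-like cells from the others in the same way was not examined. Astrocyte-like cells followed with 3.02 ± 1.11 (n = 9), which did not differ from the Oligodendrocyte-like level (3.57 ± 1.15, n = 10) beyond the spread.

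For Grm5 and Grm7 the leading dorsal annotation pointed to Inhibitory-like cells. Only 4 venDG replicates held at least 5 such cells, and with 4 replicates no p under 0.125 is possible. Grm5 in Inhibitory-like cells was higher than in the other cells in 3 of 4 replicates, by 1.19 ± 1.246 on the log2 scale (exact sign-flip permutation p = 0.25). Grm7 was higher in 4 of 4, by 1.28 ± 0.68 (exact sign-flip permutation p = 0.125). Neither comparison passed the threshold of 0.05. Excitatory-like cells, the counterpart of the leading dorsal type of Grm8, numbered 7 and gave no test.

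Granule-like cells held the largest share of the ventral Grm5, Grm7 and Grm8 UMIs. Since the dorsal InhibNeuron cells had the highest dorsal sum of granule cell markers, this class was looked at after its values were seen. It is described without a test. Grm5 had lowest, median and highest values of 11.6, 14.8 and 21.6 UMIs per 10000 in Granule-like cells and 1.32, 1.66 and 3.27 in the other cells, with the class higher in 9 of 9 replicates (log2 ratio 2.88 ± 0.60). Grm7 had 5.44, 8.11 and 9.70 in Granule-like cells and 0.642, 0.978 and 1.48 in the others, higher in 9 of 9 (2.84 ± 0.53). Neither receptor's class values overlapped those of the other cells. How many of all genes separate this class in the same way was not examined. Low-ribosomal cells were 78.7% of Granule-like and 14.8% of Microglia-like cells. Grm8 had 0, 0.861 and 1.81 against 0.124, 0.209 and 0.394, and Granule-like cells were higher in 7 of 9 replicates (1.26 ± 1.502). Granule-like cells were 8.45% of ventral cells and 14.0% of ventral UMIs, and they held 54.4% of the Grm5, 55.6% of the Grm7 and 34.9% of the Grm8 UMIs. Over all their cells, the 7 Excitatory-like cells, from 1 replicate with enough of them, had the higher levels, with Grm5 at 16.6 and Grm7 at 9.68 against 15.5 and 8.01 in Granule-like cells. Grm8 there was 1.99, against 1.40 in Inhibitory-like cells. Among classes with several replicates, Grm8 was highest in Inhibitory-like cells, at 1.76 ± 0.73 (n = 4).

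Across types the profiles of Grm5 and Grm7 resembled each other and that of Grm3 did not resemble them. Over the 12 dorsal types, Pearson's r of log2 levels was 0.97 between Grm5 and Grm7, 0.096 between Grm3 and Grm5 and −0.064 between Grm3 and Grm7. Over the 8 ventral classes the same values were 0.91, 0.18 and 0.067. Of the 3755 genes compared, those nearest to Grm5 over the dorsal types were Kcnma1 (0.99), a calcium-activated potassium channel, Celf2 (0.98) and Kcnd2 (0.98), an A-type potassium channel. Nearest to Grm7 were Syt1 (0.99), the calcium sensor of vesicle release, Kcnd2 (0.99) and Fgf14 (0.98). Nearest to Grm3 were Fgfr2 (0.95), a fibroblast growth factor receptor, Fnbp1 (0.94) and Slc20a2 (0.92), a phosphate transporter. Nearest to Grm8 were Lmln (0.98), Atl1 (0.97) and Pibf1 (0.97), at counts where few UMIs decide the order. The points of these correlations share libraries and depth, and 12 types are few, so the values are descriptions.

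Summed over all cells of a region, each of the 4 receptors was higher in low-ribosomal cells than in the others. Over all dorsal cells Grm5 was 16.2 UMIs per 10000 in low-ribosomal cells and 1.75 in the others, and over all ventral cells 11.7 and 1.55. The difference in Grm5 was also seen within the types named here. In InhibNeuron cells Grm5 was 21.7 and 8.61, in Granule-like cells 17.5 and 10.2, and in Microglia1 cells 8.88 and 0.835. The low-ribosomal Microglia1 value rests on 10 cells and 22 UMIs. Grm3 in Oligodend1 cells was 10.1 in low-ribosomal cells and 4.49 in the others. Grm3 went the other way in dorDG FT replicate 2 (0.855 and 1.23), venDG FT replicate 2 (0.910 and 1.05) and venDG FT replicate 5 (1.56 and 2.02). It did so too in Inhibitory-like cells (0.666 and 1.05, on 9 and 3 UMIs). The same was seen in BergGlia cells (0.865 and 1.05, on 1 and 4 UMIs) and OPC-like cells (0 and 0.211, on 0 and 17 UMIs).

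**Figure D2:**
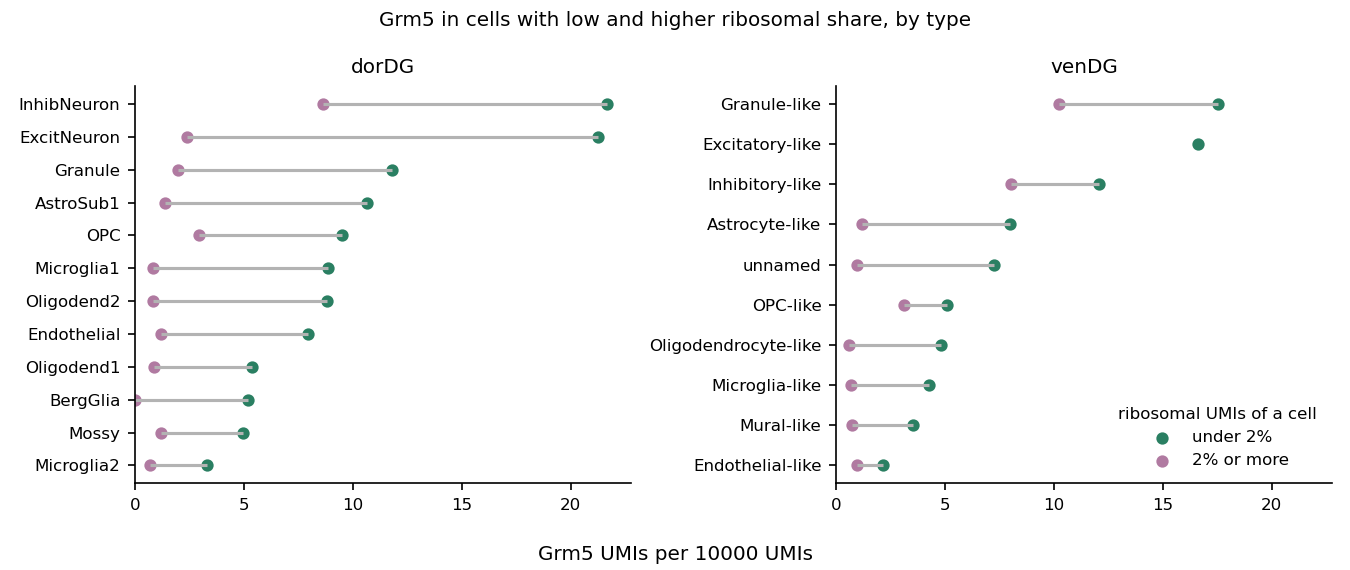
Grm5 level (x axis, UMIs per 10000 UMIs) in cells with under 2% ribosomal UMIs (green) and in cells with 2% or more (purple), by annotated type in dorDG and by class in venDG. In InhibNeuron cells the points lie at 21.7 and 8.61, and in Microglia1 cells at 8.88 and 0.835.

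Tissue was divided so that one portion gave a whole-cell suspension and another gave nuclei, and in 8 replicates the labels name 2 reactions without saying which preparation each one held. The reactions are called first and second by the order of their names. Grm5 had lowest, median and highest values of 0.744, 1.95 and 2.24 UMIs per 10000 in the first reactions and 8.20, 11.2 and 19.3 in the second. The groups did not overlap, and the second reaction was higher in 8 of 8 replicates. Grm7 had 0.47, 1.04 and 1.249 in the first reactions and 3.75, 6.12 and 8.80 in the second, also without overlap and also higher in 8 of 8. Grm8 had 0.185, 0.219 and 0.352 in the first and 0.277, 0.816 and 1.20 in the second, higher in 7 of 8 with venDG FT replicate 1 as the exception. Grm3 had 0.690, 1.04 and 1.52 in the first and 0.804, 2.16 and 4.46 in the second, higher in 7 of 8 with dorDG FT replicate 2 as the exception. The ranges of Grm8 and of Grm3 overlapped.

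In edgeR's quasi-likelihood test with the replicate as a block, all 4 receptors were higher in the second reaction at an adjusted p of at most 0.2 over all genes tested and a log2 fold change of at least 0.32. The log2 fold change was 2.38 ± 0.25 (SE) for Grm5 (adjusted p = 7.16e-07), 2.16 ± 0.22 for Grm7 (5.92e-07), 1.17 ± 0.27 for Grm8 (0.00129) and 0.45 ± 0.24 for Grm3 (0.102). The call of Grm3 was lost without venDG FT replicate 1 (0.38, edgeR adjusted p = 0.201) and without venDG Sham replicate 1 (0.24, edgeR adjusted p = 0.353). The contrast was wide: 84.2% of 4378 genes were called, 44.2% higher and 39.9% lower, and 45.6% did not overlap. On plain UMIs per 10000 the median gene was 0.61 higher in the second reactions on the log2 scale, and after TMM normalisation 0.13.

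Low-ribosomal cells and neuronal cells moved with this contrast. Low-ribosomal cells were 4.08 to 15.5% of the cells in the first reactions and 78.3 to 95.9% in the second. Cells annotated as neurons or in neuronal classes had a lowest, median and highest share of 2.04, 5.84 and 11.7% in the first and 10.6, 41.7 and 52.2% in the second. Without the neuronal cells, in a fit added after seeing the data, the log2 fold change was 2.38 ± 0.21 for Grm5, 1.85 ± 0.24 for Grm7 and 0.96 ± 0.26 for Grm3. Within the types given next, the second reactions again had the higher levels of Grm5 and Grm3. Grm5 in InhibNeuron cells was 8.68 and 22.4 UMIs per 10000 in the first and second reactions, in Granule-like cells 10.4 and 21.8 and in Oligodend1 cells 0.668 and 5.31. Grm3 in Oligodend1 cells was 4.72 and 10.7, and in Oligodendrocyte-like cells 3.20 and 9.25. Not every type went this way. In Inhibitory-like cells Grm7 was 7.36 and 4.42 and Grm8 3.96 and 1.47, and in BergGlia cells Grm3 was 1.59 and 1.15, all on few UMIs.

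**Figure D3:**
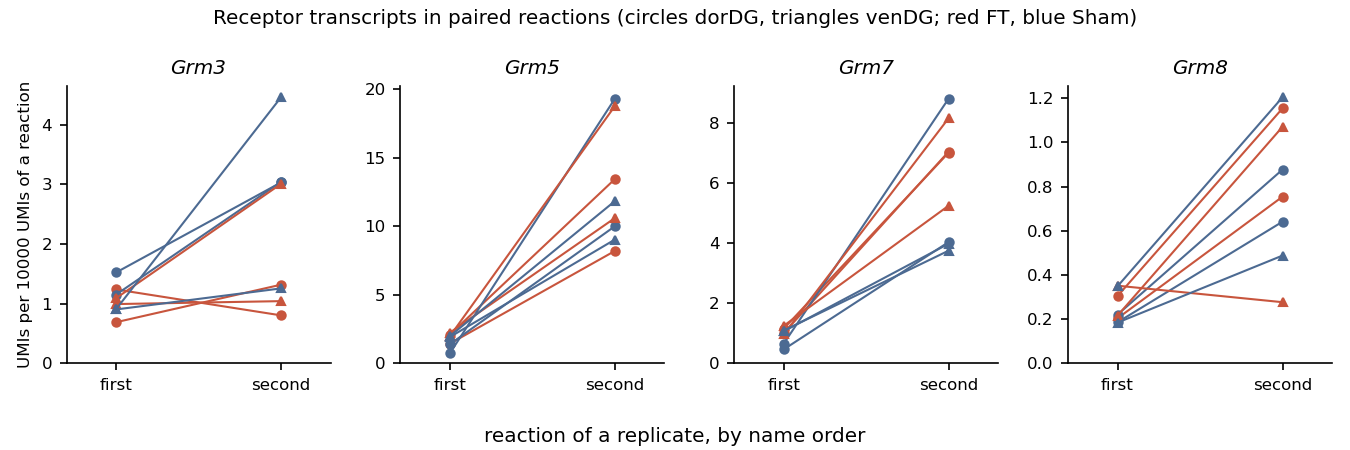
Level of each receptor transcript (y axis, UMIs per 10000 UMIs of a reaction) in the first and second reaction of the 8 replicates with a pair of reactions, joined by a line per replicate (circles dorDG, triangles venDG, red FT, blue Sham). For Grm5 the second reactions lie between 8.20 and 19.3 and the first between 0.744 and 2.24, and for Grm8 and Grm3 1 line each descends.

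The main question of the study, fluoxetine against Sham, was first described over all dorsal cells. Grm5 in dorDG was 3.95, 2.96, 1.98 and 2.33 UMIs per 10000 in the FT replicates 1, 2, 4 and 5 (2.81 ± 0.86, SD). In the Sham replicates 1 to 5 it was 9.38, 3.94, 14.8, 7.28 and 8.23 (8.72 ± 3.95). Sham replicate 3 was highest, and the groups met at FT replicate 1 and Sham replicate 2, which had nearly the same value. In such sums, fewer cells of a type and less RNA per cell cannot be told apart.

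Grm7 in dorDG was 2.11, 2.36, 1.08 and 1.52 in FT (1.77 ± 0.58) and 4.45, 1.52, 6.34, 2.97 and 3.28 in Sham (3.71 ± 1.80). Sham replicate 2 lay within the FT range, and Sham replicate 3 was again highest. Grm3 was 0.792, 1.14, 1.28 and 1.34 in FT (1.14 ± 0.24) and 2.22, 1.71, 1.77, 1.10 and 2.41 in Sham (1.84 ± 0.51), with Sham replicate 4 within the FT range. Grm8 was 0.443, 0.328, 0.202 and 0.240 in FT (0.30 ± 0.11) and 0.398, 0.415, 0.877, 0.49 and 0.463 in Sham (0.53 ± 0.20), with overlap at FT replicate 1. All 4 receptors had the lower mean in FT, and in none were the groups apart, against 8.21% of all genes tested.

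**Figure D4:**
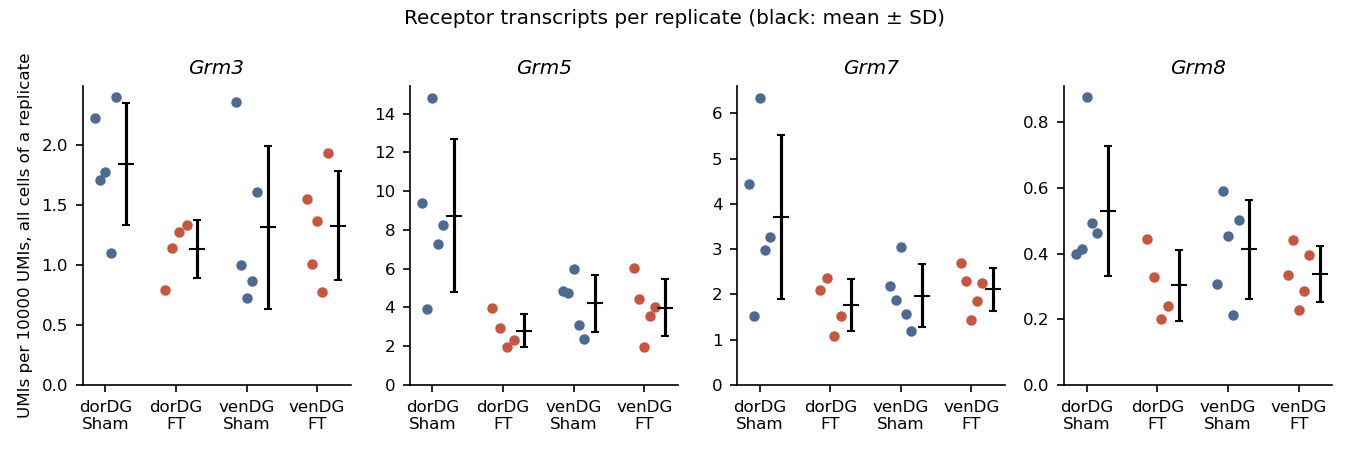
Level of each receptor transcript (y axis, UMIs per 10000 UMIs over all cells) in every replicate of the 4 groups, with mean ± SD in black. Grm5 in dorDG lies between 1.98 and 3.95 in FT and between 3.94 and 14.8 in Sham, and in venDG the groups cover nearly the same range.

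Fitted on replicate sums, the dorsal log2 fold change (FT against Sham) was −1.52 ± 0.33 (SE) for Grm5, −0.96 ± 0.35 for Grm7 and −0.62 ± 0.26 for Grm3. Grm8 was under the filter of a mean of 0.5 UMIs per 10000. All 3 fitted receptors met the threshold for a call, as did 28.6% of the 4274 genes tested (16.1% lower, 12.4% higher). Since the members were chosen with this contrast known, nothing is read from their count. When dorDG FT replicate 4 or 5, or dorDG Sham replicate 1, 3 or 5, was left out, 0 of the 3 met it, and 0 or 1 of all genes did. Leaving out 1 replicate moved the log2 fold change between −1.73 and −1.29 for Grm5, −1.14 and −0.73 for Grm7 and −0.76 and −0.47 for Grm3. In a fit blocked on replicate number the values were −1.28, −0.70 and −0.63, and 0 of the 3 receptors and 0 of all genes met the threshold.

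In dorDG, 2 FT and 2 Sham replicates had both reactions. In their first reactions Grm5 was 2.102 and 1.44 UMIs per 10000 in FT and 0.744 and 1.40 in Sham. In their second reactions it was 13.4 and 8.20 in FT and 19.3 and 9.996 in Sham. In the first reactions the lower FT value (1.44) and the higher Sham value (1.40) were nearly the same, and in the second the groups overlapped. With 2 replicates per group, and no share of all genes beside it, nothing is read from this order.

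The low-ribosomal share and the neuronal share moved with treatment in dorDG. Low-ribosomal cells were 20.3, 42.1, 14.5 and 15.2% of the FT replicates and 55.7, 51.4, 72.0, 31.9 and 44.8% of the Sham replicates. Cells annotated as neurons were 18.2, 27.4, 10.7 and 10.1% in FT and 27.0, 25.4, 46.0, 28.1 and 31.0% in Sham. Among cells with 2% or more ribosomal UMIs the log2 fold change was −0.22 ± 0.31 for Grm5, −0.078 ± 0.25 for Grm7 and −0.34 ± 0.27 for Grm3. Among low-ribosomal cells it was −0.84 ± 0.31, −0.19 ± 0.30 and −0.83 ± 0.34. With the low-ribosomal share as a covariate it was −0.93 for Grm5, −0.18 for Grm7 and −0.50 for Grm3, and none of the 3 receptors was called in any of these fits. The shares of all genes called in these fits are not given, so nothing is read from the missing calls.

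For Grm5 the values per replicate show the size of that shift. Among low-ribosomal cells Grm5 was 12.1, 8.31, 5.16 and 8.68 UMIs per 10000 in FT (8.56 ± 2.83) and 19.8, 9.39, 20.5, 19.2 and 20.3 in Sham (17.8 ± 4.75). Sham replicate 2 lay within the FT range and the other Sham replicates above it. Among the other cells Grm5 was 2.04, 1.29, 1.63 and 1.71 in FT (1.67 ± 0.31) and 0.823, 1.56, 1.49, 3.01 and 2.70 in Sham (1.92 ± 0.91), and the FT values lay inside the Sham range.

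The InhibNeuron cells were spread unevenly over the replicates. They numbered 14, 5, 4 and 4 in FT and 47, 0, 31, 16 and 26 in Sham, and held 14.9 to 56.8% of a replicate's Grm5 UMIs in FT and 0 to 64.5% in Sham. Without them Grm5 was 2.04, 2.69, 1.71 and 1.64 UMIs per 10000 in FT and 4.51, 3.94, 10.2, 4.95 and 5.32 in Sham. The groups did not overlap on that scale. The share of all genes without overlap in that fit is not given, so nothing is read from it. The log2 fold change was −1.46 ± 0.27. Without all neuronal annotations it was −0.92 ± 0.20 for Grm5, −0.40 ± 0.18 for Grm7 and −0.82 ± 0.25 for Grm3. Both fits were added after seeing the data, and 0 of the 3 receptors met the threshold over all genes in either. The shares of all genes called in them are not given.

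**Figure D5:**
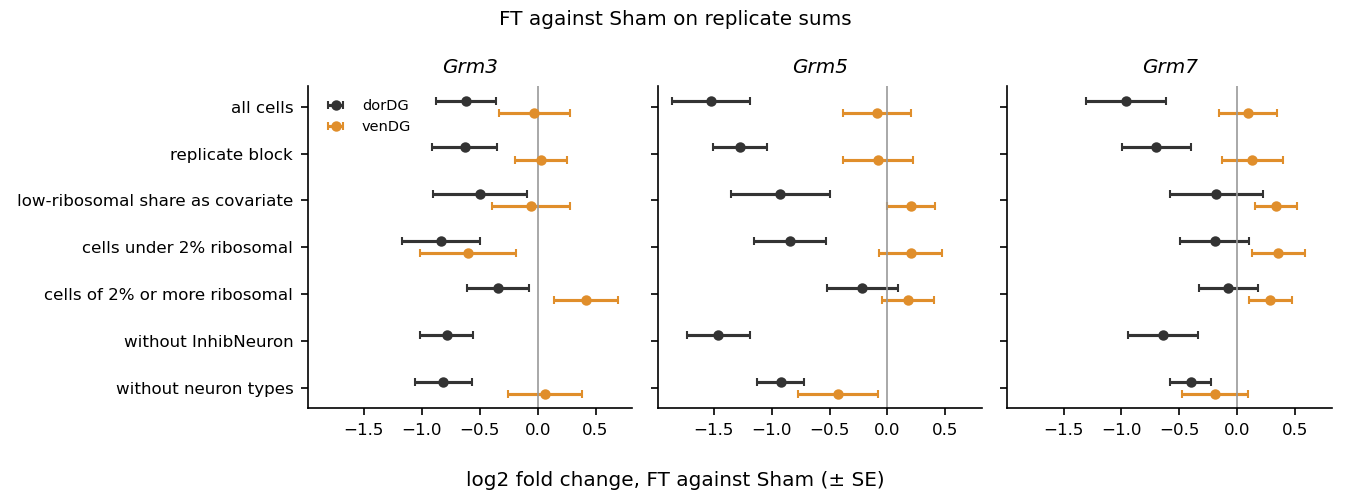
Log2 fold change of FT against Sham with its SE (x axis) for each receptor in dorDG and venDG, over all cells and under the other settings named on the y axis. The dorDG value of Grm5 moves from −1.52 over all cells to −0.22 among cells with 2% or more ribosomal UMIs, and the venDG values of Grm5 lie on both sides of 0.

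By dorsal cell type, 9 types had enough replicates and gave 26 pairs of a receptor and a type. Of these pairs 1 met the threshold, Grm5 in Oligodend1, at −1.30 ± 0.39. Grm5 in Oligodend1 was 0.997, 1.46, 0.546 and 0.863 UMIs per 10000 in FT and 1.48, 4.23, 2.66, 1.93 and 2.85 in Sham. The groups did not overlap, as was so for 6.36% of the genes tested in that type, and 6.15% of its genes were called. Its level in Oligodend1 (1.81) was near that in Endothelial (1.55) and Microglia1 (1.14) cells, and the thinned shares of cells with a UMI were 18.1, 17.8 and 11.5%. Without a call, Grm5 in Microglia1 was at −1.77 ± 0.60 and Grm7 in Endothelial at −1.83 ± 0.59. The call in Oligodend1 was lost without dorDG FT replicate 1, 4 or 5, without dorDG Sham replicate 2 or 3, and among cells with 2% or more ribosomal UMIs (−0.85). In the other types 0% of the genes were called, except for 0.0581% in Microglia2, 0.029% in Oligodend2 and 0.0232% in AstroSub1.

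In the dorsal types where each receptor was highest among those fitted, the differences were as follows. Grm5 in Granule cells was 4.32, 5.12, 2.62 and 7.47 UMIs per 10000 in FT and 18.6, 8.79, 13.8, 4.65 and 14.5 in Sham, with Sham replicate 4 inside the FT range (−0.98 ± 0.50). Grm3 in Oligodend1 was 4.79, 5.10, 4.23 and 2.73 in FT and 7.81, 6.25, 8.86, 2.89 and 6.64 in Sham, with Sham replicate 4 again inside the FT range (−0.55 ± 0.28). Grm7 in Granule cells was 4.32, 1.65, 1.83 and 4.64 in FT and 9.29, 2.80, 6.91, 4.90 and 3.42 in Sham, with 2 Sham replicates inside the FT range (−0.53 ± 0.51).

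In AstroSub1 the log2 fold change was −0.84 ± 0.45 for Grm5 and −0.48 ± 0.47 for Grm3. In OPC it was −0.19 ± 0.42 for Grm7 and −0.82 ± 0.69 for Grm8, and in Granule cells −1.11 ± 0.78 for Grm8. Intervals of 2 SE included 0 in each of these pairs. InhibNeuron cells were too few for that rule, since 2 FT replicates had 4 cells each. Fitted with any number of cells, Grm5 in InhibNeuron was 13.6, 6.89, 5.75 and 11.0 in FT and 23.1, 20.9, 15.6 and 18.5 in the 4 Sham replicates that had such cells (−0.94 ± 0.30). The groups did not overlap, as for 10.2% of the genes of that fit, and 0 of its 4657 genes were called. Grm7 there was at −0.66 ± 0.33.

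In venDG, Grm5 was 6.02, 4.45, 1.95, 3.54 and 4.02 UMIs per 10000 in FT (4.0 ± 1.48) and 4.83, 4.76, 6.00, 3.10 and 2.36 in Sham (4.21 ± 1.46). Grm7 was 2.70, 2.3, 1.44, 1.85 and 2.25 in FT (2.11 ± 0.48) and 2.18, 1.89, 3.04, 1.57 and 1.18 in Sham (1.97 ± 0.70). Grm3 was 1.55, 1.01, 1.37, 0.776 and 1.93 in FT (1.33 ± 0.45) and 2.36, 1.0, 0.727, 0.866 and 1.61 in Sham (1.31 ± 0.68). The groups overlapped along most of their range for all 3 receptors. Grm8 was 0.334, 0.442, 0.230, 0.286 and 0.396 in FT and 0.309, 0.590, 0.454, 0.214 and 0.502 in Sham, and it was under the filter.

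The ventral log2 fold change (FT against Sham) was −0.091 ± 0.30 for Grm5, 0.094 ± 0.25 for Grm7 and −0.027 ± 0.30 for Grm3. The intervals of 2 SE ran from −0.68 to 0.50, from −0.41 to 0.59 and from −0.64 to 0.58. None of the 4079 genes (0%) was called by edgeR, with 236 genes at an unadjusted p under 0.05. By DESeq2 22 genes were called, with 321 under 0.05. The low-ribosomal share was 30.3% ± 13.8 in venDG FT and 40.1% ± 16.7 in venDG Sham.

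Within 7 ventral classes 18 pairs of a receptor and a class were fitted, and 0 met the threshold. Grm3 in Oligodendrocyte-like cells was 3.87, 3.45, 2.71, 3.19 and 5.20 UMIs per 10000 in FT and 5.98, 3.21, 2.75, 2.59 and 2.73 in Sham (log2 fold change 0.079 ± 0.28). Grm5 in Granule-like cells was 21.6, 11.6, 13.1, 15.2 and 11.9 in FT and 18.3, 14.1, 17.8 and 14.8 in Sham (−0.15 ± 0.26). Grm7 in Granule-like cells was 9.35, 7.24, 9.70, 8.13 and 6.92 in FT and 9.26, 5.44, 7.57 and 8.11 in Sham (0.12 ± 0.24). In these 3 pairs the groups overlapped.

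Grm8 in Granule-like cells was 0.230, 0.861, 0, 0.707 and 1.19 in FT and 1.42, 1.81, 1.35 and 0.631 in Sham, with Sham replicate 4 inside the FT range (−1.03 ± 0.51). In Astrocyte-like cells Grm3 was at −0.25 ± 0.45 and Grm5 at −0.42 ± 0.47, and in OPC-like cells Grm7 was at −0.18 ± 0.30. The share of all genes called was 3.51% in Astrocyte-like cells, 0.142% in Oligodendrocyte-like cells and 0% in the other classes. Grm5 in Oligodendrocyte-like cells, the counterpart of the dorsal pair that was called, was at −1.09 ± 0.39. It met the threshold without venDG Sham replicate 4 (−1.33) and in the fit with the replicate block (−0.95). In Astrocyte-like cells Grm5 (−0.79) and Grm7 (−1.42) met it without venDG FT replicate 1. The shares of all genes called in these alternative fits are not given, so nothing is read from these calls.

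The dorsal and ventral regions were compared within each treatment. These comparisons share the dorsal replicates with the comparison of FT and Sham above. The paper describes tissue of both regions as punched from brains of the same treatment groups, so dorsal and ventral pools may share animals. Whether same-numbered pools hold tissue of the same animals is not stated. Fits without a replicate block treat the pools as independent, although the Sham numbers were taken as paired. In Sham the log2 fold change (dorDG against venDG) was 0.94 ± 0.33 for Grm5, 0.81 ± 0.33 for Grm7 and 0.40 ± 0.31 for Grm3. None of the 4313 genes (0%) was called by edgeR, with 361 at an unadjusted p under 0.05, and by DESeq2 155 were, Grm5 (0.92) among them. Replicates of the same number deviated together in these groups, and with the replicate block 2.43% of the genes were called, with Grm5 among them (0.92) and neither Grm7 nor Grm3. Without dorDG Sham replicate 2, Grm5 (1.12) and Grm7 (1.01) met the threshold in the fit without the block. Leaving out 1 replicate there gave 0 to 200 calls over all genes. Nothing is read from these counts, since the regional values had a part in the choice of members. Low-ribosomal cells were 51.2% ± 14.7 of dorDG Sham and 40.1% ± 16.7 of venDG Sham cells, and their part in the regional difference was not tested.

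In FT the regional log2 fold change was −0.51 ± 0.29 for Grm5, −0.25 ± 0.24 for Grm7 and −0.21 ± 0.25 for Grm3. None of them met the threshold, and 0.275% of 3994 genes did. In the fit with the replicate block Grm5 was at −0.70 and met it, where the correlations of same-numbered replicates were 0.0936 to 0.344. The share of all genes called with that block is not given, so nothing is read from the call. The interaction of region and treatment, given as the ventral minus the dorsal effect, was 1.47 ± 0.46 for Grm5, 1.09 ± 0.44 for Grm7 and 0.63 ± 0.42 for Grm3. In this fit, which had no replicate block, none of the 4161 genes (0%) was called by edgeR, with 394 at an unadjusted p under 0.05. Without dorDG Sham replicate 2, Grm5 (1.66) and Grm7 (1.29) met the threshold. Leaving out 1 replicate gave 0 to 335 calls over all genes, and nothing is read from the receptor calls.

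The other genes of metabotropic glutamate signalling were taken from a list of 48 symbols, 44 of which are in the tables. Over all dorsal cells 23 passed the filter, and 9 met the threshold for FT against Sham, 6 lower and 3 higher, where 28.6% of all genes did (16.1% lower, 12.4% higher). None of the pathway genes met it with the replicate block, in either ribosomal class, with the low-ribosomal share as a covariate, without InhibNeuron cells or without neuronal cells. Apart from the block, the shares of all genes called in these fits are not given, so nothing is read from this. The low-ribosomal share moved with treatment, as given above. Among the lower genes were Kcnj3 (−1.58 ± 0.46), a subunit of the potassium channel that Gi/o-coupled receptors open, and Plcb1 (−1.24 ± 0.43), a phospholipase C of the Gq arm. Dlgap1 (−1.09 ± 0.34), a postsynaptic scaffold, and Prkca (−0.91 ± 0.28), a protein kinase C, were lower too. Glul, which encodes glutamine synthetase, was higher (0.83 ± 0.28). The median of the 23 genes was −0.28, and over all genes tested it was −0.037. In the list of the Gq arm 3 of 8 genes were lower and 0 higher, beside 16.1% of all genes lower. In the list of the Gi/o arm, which the products of Grm3, Grm7 and Grm8 use, 2 of 6 genes were higher and 1, Kcnj3, lower. The higher ones were the Gi alpha subunit genes Gnai2 (0.81 ± 0.22) and Gnai3 (0.42 ± 0.20), named here after their values were seen. In Oligodend1 Glul (1.05 ± 0.28) was higher and Dlgap1 (−0.89 ± 0.31) lower.

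Between reactions 19 of 24 pathway genes were called by edgeR, 15 higher and 4 lower in the second, where 84.2% of all genes were called, 44.2% higher and 39.9% lower. The pathway genes had a median of 0.65 against 0.13 over all genes. Kcnj3 rose by 2.48 ± 0.30 on the log2 scale, Plcb1 by 2.21 ± 0.26, Slc1a2, an astrocytic glutamate transporter, by 1.92 ± 0.48 and Kcnj6, a partner subunit of Kcnj3, by 1.71 ± 0.32. Glul fell by 3.42 ± 0.34. In venDG, in both regional comparisons and in the interaction 0 pathway genes were called by edgeR without the replicate block. With the block, Kcnj3 was higher in dorDG than in venDG in Sham (1.13 ± 0.24, edgeR adjusted p = 0.110).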

How the data were processed

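The libraries were 10x Genomics 3′ gene expression libraries (27 reactions, 108 libraries per the labels). The authors deposited one table of raw UMI counts (genes by cells) per region, made with Cell Ranger (2.1.0) and the genome build rn5 per the submitters' notes, which also name Seurat 3, after filtering cells. The authors' annotation gives dorDG cell types. No column of the authors' own comparisons was used.

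Groups came from the labels, and counts were summed per replicate. A further 170 venDG columns, whose reaction name has an extra suffix not explained by the labels, were left out. No replicate repeated another: in 36 within-group pairs the chi-square of summed counts was 2.97 to 17.1 times its degrees of freedom. Tests across all genes with a mean of 0.5 or more UMIs per 10000 used edgeR 4.0.16 (quasi-likelihood F-test, TMM) in R 4.3.3, checked on simulated counts. A call required an adjusted p (Benjamini-Hochberg) not above 0.2 together with a log2 fold change of 0.32 or more in either direction. DESeq2 1.42.0 was an alternative. Types needed 5 cells per replicate and 3 replicates per group. The members, lists and tests were chosen with earlier results of these data known, and the fits of the receptors between treatments and regions are given without p-values.

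Because venDG counts come without cell types, they were clustered with scanpy 1.11.5 (2000 variable genes, 30 components, 15 neighbours, Leiden resolution 2), leaving out Grm and pathway genes, and named from at least 3 fixed markers. No doublet caller was run. Class levels were compared by a two-sided exact sign-flip permutation test of log2 ratios with a pseudocount of 0.1. Cells were not treated as replicates. Named genes are the 4 members, at most 6 called pathway genes per contrast by absolute log2 fold change, and for each member the 3 genes with the highest correlation across dorDG types. One pathway gene that this rule names is not reported here.

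Replicate numbers were checked for pairing by the correlation of same-numbered deviations from the group means. Between dorDG Sham and venDG Sham all 5 correlations were over 0.1 (0.196 to 0.552), so those numbers were taken as paired. The other pairs of groups had at least 1 correlation at or under 0.1. The labels and the authors' annotation number the replicates differently, and the labels' numbers were used.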

Additional observations from a re-analysis of the deposited data

Results flagged for a closer look

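Among 44 groups of 4 to 10 replicates whose extreme value was compared with the rest of the group, 3 had a replicate far from the others, and chance gives about 1 such group in 20. Grm8 in dorDG Sham was 0.877 UMIs per 10000 in replicate 3, where the other replicates lay between 0.398 and 0.49. Grm5 in Astrocyte-like cells of venDG Sham was 7.19 in replicate 1, and 3.13 to 3.8 in the others. Grm3 in Oligodendrocyte-like cells of venDG Sham was 5.98 in the same replicate 1, and 2.59 to 3.21 in the others. DorDG Sham replicate 3 also had the highest low-ribosomal share of its group (72.0%). Whether that share has a part in the value was not tested.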

How the results depend on the processing

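Over all dorsal cells the count of receptors meeting the threshold for FT against Sham moved from 3 to 1 without the filter on low counts, and to 0 with the replicate block, among cells of 2% or more ribosomal UMIs, among cells under 2%, with the low-ribosomal share as a covariate, without InhibNeuron cells and without neuronal cells. The pathway count moved from 9 to 3 without the filter (Kcnj3 and Gnai2 among them) and to 0 under the other 6 of these settings. Apart from the block, the shares of all genes called under these settings are not given, so nothing is read from these counts. Leaving out 1 replicate gave 0 to 3 receptors and 0 to 14 pathway genes. Over all genes it gave 0 to 2022 calls, against 1221.

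For the regions in Sham the counts of 0 receptors and 0 pathway genes became 1 and 1 with DESeq2 and with the replicate block (Grm5 and Kcnj3), and the pathway count became 2 without the filter and 2 among low-ribosomal cells (Kcnj3 and Kcnj6). Leaving out 1 replicate gave 0 to 2 receptors and 0 to 3 pathway genes. For the regions in FT, 0 and 0 became 1 and 1 with the replicate block (Grm5 and Ncdn), and the pathway count became 1 with DESeq2 (Ncdn). For the interaction, leaving out 1 replicate gave 0 to 2 of each. Of the dorsal pairs of receptor and type, the 1 call became 0 without the filter and in either ribosomal class, and 0 to 2 when 1 replicate was left out. Of the ventral pairs, 0 calls became 1 with the replicate block and 0 to 2 when 1 replicate was left out. Between reactions, leaving out 1 replicate gave 3 to 4 receptors and 18 to 20 pathway genes.

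Changes of sign occurred among the small ventral differences of FT against Sham. Grm3 over all cells went from −0.027 to 0.10 without the filter, 0.028 with the replicate block, 0.42 among cells of 2% or more ribosomal UMIs, 0.061 without neuronal cells and −0.17 to 0.32 without 1 replicate. Grm5 went from −0.091 to 0.030 without the filter, 0.18 among cells of 2% or more, 0.20 among cells under 2%, 0.20 with the covariate and −0.27 to 0.087 without 1 replicate. Grm7 went from 0.094 to −0.19 without neuronal cells and −0.033 to 0.29 without 1 replicate. Grm3 in Oligodendrocyte-like cells went from 0.079 to −0.049 among cells under 2% and −0.085 to 0.37 without 1 replicate, and Grm3 in Astrocyte-like cells from −0.25 to 0.41 among cells of 2% or more and −0.40 to 0.086 without 1 replicate. Grm5 in Astrocyte-like cells went from −0.42 to 0.028 among cells of 2% or more and −0.79 to 0.021 without 1 replicate. The cause of these changes was not tested.

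The ventral Oligodendrocyte-like level of Grm3 passed its test under every alternative run (2.11 to 2.29 without 1 replicate). With the 170 left-out venDG columns included, the Granule-like log2 ratio of Grm5 moved from 2.88 to 1.98 and that of Grm7 from 2.84 to 2.24. At a Leiden resolution of 1 no cluster was Inhibitory-like, so that alternative gave no value. Recomputed log2 fold changes were tallied for the contrasts over all cells and for the fitted types and classes where each receptor was highest. Grm5 in Oligodend1 and in Oligodendrocyte-like cells is not in this tally. In it 492 kept their direction and side of the threshold, 40 lost and 9 gained a call, and 24 changed sign.

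With the replicate number as a block, Grm5 between the regions in FT was at −0.70 and Grm5 in Oligodendrocyte-like cells at −0.95. Both then met the threshold, and the shares of all genes called in these fits are not given. For FT against Sham the correlations were −0.214 to 0.361 in dorDG and −0.154 to 0.265 in venDG, and no source used here says that a number marks a shared batch of these single-cell samples. The block moved the dorsal calls over all genes from 1221 to 0. Apart from these calls, the 3 dorsal calls and Grm5 between the regions in Sham, it changed no call among the receptors.

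Depth limits Grm8 most, with 549 UMIs over all cells, and types with few cells. The labels do not say which reactions held cells and which nuclei, and for the 11 of 19 replicates with 1 reaction the preparation is not given.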
